A study of Mus musculus with 6 samples.

Results

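A group of 10 genes that mark adventitial progenitor-like fibroblasts were followed in RNA-seq of stromal cells sorted from mouse melanomas. The rule took each row of the count table whose gene name was Pi16, Dpp4, Cd34, Ly6a, Ly6c1, Dpt, Sema3c, Clec3b, Gsn or Cd248, and it found 10 of the 53801 genes in the table, with 1 row for each name. The rule reads gene names only, but the names were picked with earlier results of these data known. All 10 passed the filter on low counts, which kept 15133 genes.

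Fibroblasts of the adventitia, the loose connective tissue around larger vessels, are described in many organs by the surface enzyme DPP4, the peptidase inhibitor PI16 and the mucin CD34. They are known as a resting reservoir that can give rise to more specialised fibroblasts, fat cell precursors and, in wounds and tumours, matrix-producing cells. Myofibroblasts, marked by smooth muscle actin and abundant fibrillar collagen, are a different fibroblast state in which these markers are usually low.

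The series compared CD45-CD31-PDPN+PDGFRα+ cells from MO5 tumors (B16-OVA melanoma cells grown under the skin of C57BL/6 mice) in 2 groups of 3 libraries. DTR libraries came from ADAM12-DTR mice, which carry a bacterial artificial chromosome transgene that places a diphtheria toxin receptor under the Adam12 promoter, and Ctrl libraries came from littermates without the transgene. Both groups received diphtheria toxin (DT), given in the study at 100 ng per day, and tumors were implanted at 8 to 12 weeks of age. Cells that express Adam12 are the ones exposed to killing in DTR mice, so the DTR libraries describe what was sorted as PDPN+PDGFRα+ after that exposure. The sources do not say whether each library came from a separate mouse, and p-values therefore measure only the spread between these libraries. In bulk RNA of this kind, fewer cells of a type and less RNA per cell cannot be told apart.

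Between 22339635 and 34271929 reads were counted on genes per library, DTR replicate 3 having the fewest. Levels are given as CPM, counts relative to library depth, after TMM scaling, which sets the libraries to a common level over most genes, and a count of 3 corresponded to 0.0875 to 0.134 CPM of the unscaled library totals. Every member stood far above that floor, which varies with the library total and is not an error interval. Adam12, whose promoter drives the receptor, was at 216, 181 and 175 CPM in Ctrl replicates 1 to 3. In DTR replicates 1 to 3 it was at 165, 151 and 112 CPM. Its groups did not overlap, as in 8.18% of all genes with DTR lower, although its adjusted p was 0.602 (edgeR quasi-likelihood, Benjamini-Hochberg). The sorting markers were present in all libraries. Pdgfra was at 125, 42.7 and 63.0 CPM in Ctrl and at 96.7, 54.0 and 132 CPM in DTR, and Pdpn was at 73.3, 46.0 and 46.9 CPM in Ctrl and at 67.3, 49.0 and 99.2 CPM in DTR. The melanoma markers, which the sort should lack, summed to between 17952 and 21051 CPM in Ctrl and between 16874 and 19906 CPM in DTR, above the summed level of 12 pan-fibroblast genes in every library but DTR replicate 3.

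As a group the 10 genes had one pattern over the libraries. Each was highest in DTR replicate 3, and for each the 3 highest libraries were DTR replicate 3, DTR replicate 1 and Ctrl replicate 1. Their summed level was 1199, 607 and 742 CPM in Ctrl replicates 1 to 3 and 1276, 571 and 3119 CPM in DTR replicates 1 to 3. DTR replicate 3 was at 3.55-fold the mean of the other 5 libraries, DTR replicate 1 lay close to Ctrl replicate 1, and DTR replicate 2 had the lowest sum of all. The group means were 849.7 ± 310.3 CPM in Ctrl and 1655 ± 1316 CPM in DTR (SD, n = 3 each), a ratio of 1.95 that became 1.09 without DTR replicate 3. Gsn, the most abundant member, held 385 CPM of the Ctrl mean, so these sums weigh it most.

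**Figure D1:**
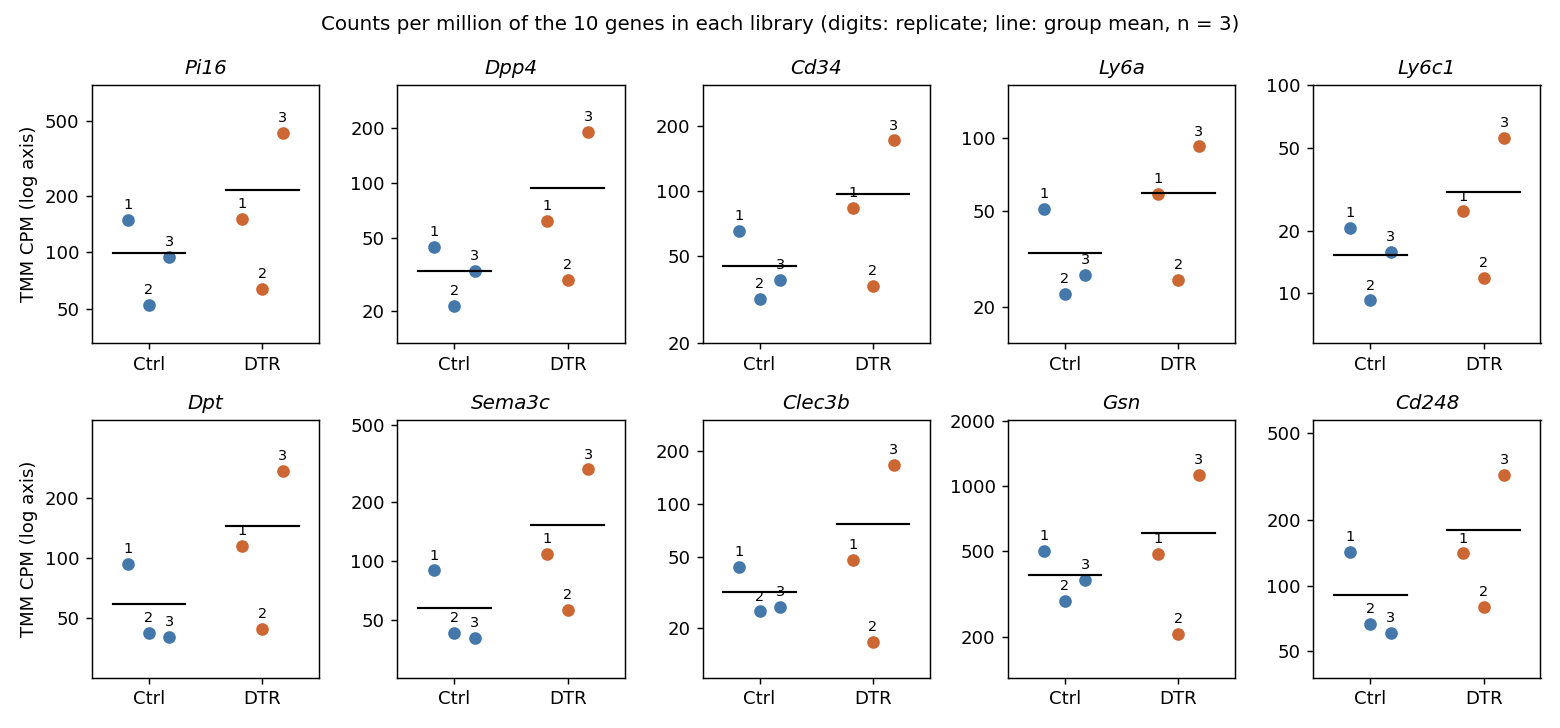
TMM CPM of the 10 genes (log axis, 1 panel per gene), with 1 point per library, the replicate number above it and a line at the mean of each group (n = 3). In every panel DTR replicate 3 is the highest point and the other 5 libraries of both groups overlap.

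By edgeR's quasi-likelihood test, 0 of the 10 genes and 0% of all 15133 genes had an adjusted p under 0.05. All 10 had a log2 fold change above 0 (DTR over Ctrl), from 0.65 for Gsn to 1.51 for Dpp4, with a median of 1.11 beside -0.0029 for all genes tested. At an unadjusted p under 0.05 there were 2 members, Dpp4 and Sema3c, both higher in DTR, where 3.81% of all genes were higher and 4.11% lower. In 0 of the 10 genes did the groups separate without overlap, where 6.32% of all genes were separated with DTR higher and 8.18% with DTR lower. Exact permutation tests of single genes (two-sided, 3 libraries against 3, smallest possible p 0.1) gave p from 0.2 to 0.8.

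Among the surface proteins, Dpp4 had the largest difference. Dpp4 (ENSMUSG00000035000, GRCm38 chr2:62330073-62412231, minus strand) encodes CD26, a membrane serine peptidase that trims chemokines and incretins and marks fibroblast progenitors of the skin. Its level was 44.8, 21.5 and 33.3 CPM in Ctrl replicates 1 to 3 and 62.4, 29.7 and 191 CPM in DTR replicates 1 to 3, which is a range of 8.90-fold between the lowest and the highest library. DTR replicates 1 and 3 were above every Ctrl library and DTR replicate 2 was inside the Ctrl range. The means were 33.2 ± 11.6 CPM and 94.5 ± 85.4 CPM (SD, n = 3 each). The fitted log2 fold change was 1.51 (SE 0.611), with an adjusted p of 0.604 (edgeR quasi-likelihood, Benjamini-Hochberg), and it was 0.47 without DTR replicate 3.

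Cd34 (ENSMUSG00000016494, GRCm38 chr1:194938819-194961279, plus strand) encodes a heavily glycosylated mucin of blood progenitors, endothelium and tissue-resident fibroblasts. It was at 65.3, 32 and 38.8 CPM in Ctrl and at 83.3, 36.7 and 171 CPM in DTR. As for Dpp4, DTR replicates 1 and 3 lay above the Ctrl libraries and DTR replicate 2 among them. The log2 fold change was 1.09 (SE 0.507; adjusted p = 0.630, edgeR quasi-likelihood), and without DTR replicate 3 it was 0.40.

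Cd248 (ENSMUSG00000056481, GRCm38 chr19:5068078-5070682, plus strand) encodes endosialin, a transmembrane C-type lectin receptor of mesenchymal cells and pericytes. It reached 144, 66.8 and 60.6 CPM in Ctrl and 141, 80.3 and 321 CPM in DTR. Here Ctrl replicate 1 stood slightly above DTR replicate 1, and only DTR replicate 3 exceeded all Ctrl libraries. The log2 fold change of 1.00 (SE 0.514) had an adjusted p of 0.651 in the same edgeR quasi-likelihood fit and became 0.29 when DTR replicate 3 was left out.

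Ly6a (ENSMUSG00000075602, GRCm38 chr15:74994877-74998031, minus strand), which encodes the GPI-anchored surface protein Sca-1, was at 50.8, 22.6 and 27.1 CPM in Ctrl and at 59.0, 25.8 and 92.6 CPM in DTR. DTR replicate 3 was at 2.5-fold the mean of the other 5 libraries, the smallest such ratio among the 10 genes. Ly6c1 (ENSMUSG00000079018, GRCm38 chr15:75044018-75048830, minus strand), a neighbouring gene of the same GPI-anchored family that is also made by endothelium and monocytes, was the least abundant member by CPM. It was at 20.6, 9.25 and 15.9 CPM in Ctrl and at 24.8, 11.9 and 55.8 CPM in DTR. The order of the libraries was the same in both genes. Their log2 fold changes were 0.82 (SE 0.458) for Ly6a and 1.01 (SE 0.522) for Ly6c1, with adjusted p = 0.662 and 0.652 (edgeR's quasi-likelihood test). They were 0.34 and 0.27 without DTR replicate 3.

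These Ly6 genes share sequence with each other and with nearby genes, so that reads can be lost or assigned to the wrong member. Of all 50-base words in the annotated transcripts, 19.0% of those of Ly6a and 32.8% of those of Ly6c1 also occurred in another gene, 15% of the Ly6a words in Ly6c1 and 21.5% of the Ly6c1 words in Ly6c2. The share was 0.940% for Pi16 and 0.447% for Cd34, and 0 for the other 6 members. Of 14 genes listed as neighbours, 11 were in the table and 3 passed the filter. Ly6c2, the gene most like Ly6c1 and known for monocytes, was at 0.449, 1.84 and 0.984 CPM in Ctrl and at 2.21, 3.35 and 4.15 CPM in DTR, far below Ly6c1. Its DTR libraries were all above its Ctrl libraries, as in 6.32% of all genes, with an adjusted p of 0.602 by edgeR's quasi-likelihood test. Ly6e, a widely expressed member of the family, had a log2 fold change of 0.38 (0.09 without DTR replicate 3), and Ly6d had 0.64 at levels near the floor (1.19 without it).

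Pi16 (ENSMUSG00000024011, GRCm38 chr17:29317680-29330593, plus strand) encodes a peptidase inhibitor of the CAP family of cysteine-rich secretory proteins, and its name is given to the Pi16+ fibroblasts of many tissues. It was at 149, 52.6 and 94.2 CPM in Ctrl and at 151, 63.7 and 431 CPM in DTR. DTR replicate 1 was level with Ctrl replicate 1, DTR replicate 2 was within the Ctrl range, and DTR replicate 3 was at 4.22-fold the mean of the other 5. The means were 98.6 ± 48.4 CPM and 215 ± 192 CPM (SD, n = 3 each). The log2 fold change was 1.12 (SE 0.643; adjusted p = 0.664, edgeR quasi-likelihood) and 0.12 without DTR replicate 3.

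Sema3c (ENSMUSG00000028780, GRCm38 chr5:17574281-17730268, plus strand) encodes a secreted semaphorin, a guidance cue that acts through neuropilins and plexins. Its level was 89.6, 42.6 and 40.4 CPM in Ctrl and 109, 55.9 and 296 CPM in DTR. DTR replicate 2 was above Ctrl replicates 2 and 3 but below Ctrl replicate 1, which was the one point of overlap between the groups. The log2 fold change was 1.42 (SE 0.580), with adjusted p = 0.604 (edgeR quasi-likelihood). Without DTR replicate 3 it was 0.52, the highest value of the 10 genes in that setting.

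Dpt (ENSMUSG00000026574, GRCm38 chr1:164796644-164824266, plus strand) encodes dermatopontin, a small matrix protein that binds decorin and helps collagen fibrils assemble. It was at 93.5, 42.3 and 40.3 CPM in Ctrl and at 115, 44.1 and 273 CPM in DTR. Its order of libraries was that of Sema3c. Its log2 fold change was 1.29 (SE 0.608; adjusted p = 0.631, edgeR quasi-likelihood) and 0.44 without DTR replicate 3.

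Clec3b (ENSMUSG00000025784, GRCm38 chr9:123150946-123157432, plus strand) encodes tetranectin, a secreted C-type lectin that binds plasminogen. It was at 44.1, 24.7 and 26.3 CPM in Ctrl and at 48.3, 16.7 and 166 CPM in DTR, the widest range of the 10 genes at 9.96-fold. Both the lowest and the highest library were DTR libraries. The log2 fold change of 1.28 (SE 0.701; adjusted p = 0.658, edgeR quasi-likelihood) was 0.04 without DTR replicate 3.

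Gsn (ENSMUSG00000026879, GRCm38 chr2:35256380-35307892, plus strand) encodes gelsolin, which severs and caps actin filaments inside cells and is also secreted. It was the most abundant member, at 498, 293 and 365 CPM in Ctrl and at 482, 206 and 1122 CPM in DTR. As with Clec3b, DTR replicate 2 was the lowest library and DTR replicate 3 the highest. In the fit its log2 fold change was 0.65 (SE 0.519; adjusted p = 0.752, edgeR quasi-likelihood) and turned to -0.16 without DTR replicate 3, the one change of sign among the 10 genes.

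Compared per kilobase of annotated exon, the members differed widely in level. In Ctrl, Gsn was highest at 122 ± 32.9 CPM per kb (SD, n = 3). Cd248 at 34.7 ± 17.8, Dpt at 34.0 ± 17.5, Clec3b at 31.9 ± 10.9 and Ly6a at 27.8 ± 12.6 CPM per kb followed. Pi16 was next at 15.5 ± 7.60 CPM per kb. Its Ctrl libraries, at 8.27 to 23.4 CPM per kb, overlapped those of Ly6a (18.8 to 42.2) and Ly6c1 (5.52 to 12.3). Ly6c1 at 9.08 ± 3.39, Sema3c at 8.06 ± 3.89, Cd34 at 6.22 ± 2.42 and Dpp4 at 5.25 ± 1.84 CPM per kb were lowest. The members varied together over the libraries, so these SDs do not measure differences between genes. The order of the genes was not tested.

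The size of the group difference varied with the library left out. The median log2 fold change of the 10 genes was 1.53 without Ctrl replicate 1, 0.86 without Ctrl replicate 2, 1.06 without Ctrl replicate 3, 1.28 without DTR replicate 1 and 1.52 without DTR replicate 2. Without DTR replicate 3 it was 0.32, with 9 of the 10 genes above 0. The number of members at an unadjusted p under 0.05, which was 2 with all libraries, was 10 without DTR replicate 2, 6 without Ctrl replicate 1, 2 without DTR replicate 1, and 0 without Ctrl replicate 2, Ctrl replicate 3 or DTR replicate 3. Every member counted here was higher in DTR, and in the same fits the share of all genes higher in DTR at that p was 4.5%, 5.16%, 4.88%, 2.88%, 3.07% and 3.07%, in the same order. In none of these fits did a member reach the threshold after adjustment.

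**Figure D2:**
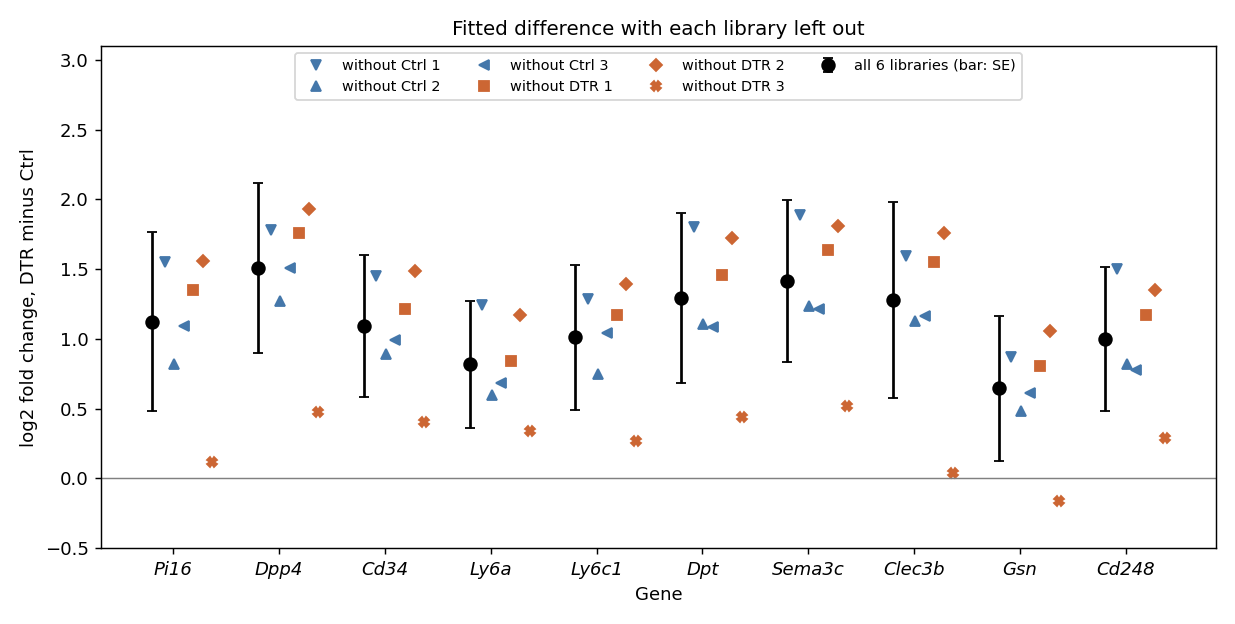
Fitted log2 fold change of each gene (DTR minus Ctrl, edgeR) with all 6 libraries (black, bar: SE) and with each library left out. The crosses for the fits without DTR replicate 3 lie lowest for all 10 genes, between -0.16 and 0.52.

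The position of DTR replicate 3 was set beside that over the whole table. It was the highest of the 6 for 10 of 10 members and for 20.9% of all genes tested. It stood over 2 times above the mean of the other 5 libraries for 10 of 10 members, and for 6.43% of all genes. The 10 genes also varied together over the 6 libraries, with Pearson's r of log2 CPM from 0.889 (Sema3c with Gsn) to 0.995 over 45 pairs and a median of 0.962. Without DTR replicate 3 the range was 0.634 to 0.996 and the median 0.894. Within a library all genes share its depth and any difference in cell composition, which was not measured. These values over 6 libraries therefore carry no test.

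The libraries also differed in the level of general fibroblast genes. The summed level of 12 pan-fibroblast genes (collagens I, III, V and VI with Fstl1, Mmp2, Pcolce and Serpinh1) was 17320, 7022 and 7131 CPM in Ctrl and 13560, 7539 and 17361 CPM in DTR. Ctrl replicate 1, DTR replicate 1 and DTR replicate 3, the 3 libraries in which all members were highest, were also those with the most pan-fibroblast counts. The 3 most abundant collagens made up 73.7% of this sum, and for 9 of the 12 genes these libraries were the 3 highest, but the range between lowest and highest library ran from 1.27-fold for Pcolce to 6.33-fold for Mmp2. More fibroblast RNA and more collagen expression per cell cannot be told apart in this sum. Per 1000 pan-fibroblast counts, the members summed to 69.3, 86.5 and 104 in Ctrl and to 94.1, 75.7 and 180 in DTR. On this scale Ctrl replicate 1 became the lowest library and DTR replicate 3 remained the highest, at 2.09-fold the mean of the other 5. The means were 86.6 ± 17.4 in Ctrl and 116 ± 55.5 in DTR (SD, n = 3 each). Their ratio was 1.35, and 0.980 without DTR replicate 3. Gsn, the most abundant member, held 40.6 of the 86.6 in Ctrl, so these ratios weigh it most and need not hold for each gene.

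**Figure D3:**
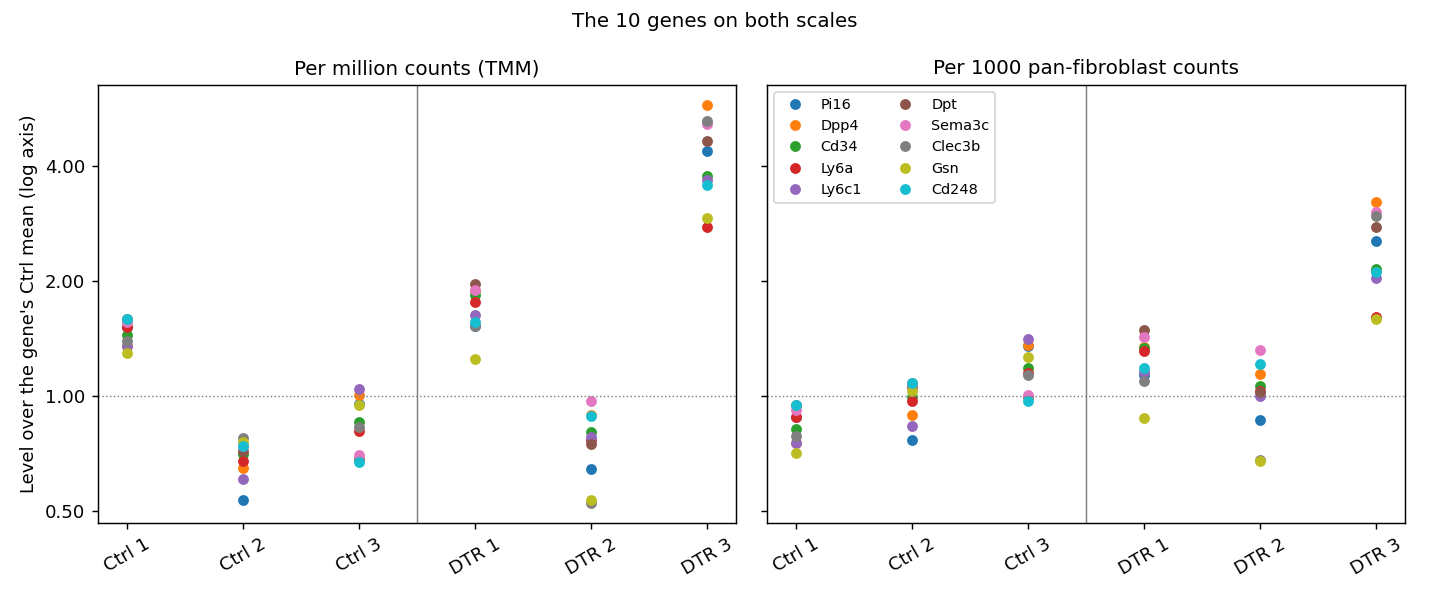
Level of each gene over its own Ctrl mean (log axis) in the 6 libraries, as TMM CPM on the left and per 1000 pan-fibroblast counts on the right; the dotted line is the Ctrl mean. Ctrl 1 lies above the dotted line on the left and below it on the right, and DTR 3 is the highest library for all 10 genes on both scales.

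Gene by gene, all 10 members were highest in DTR replicate 3 on the pan-fibroblast scale as well, where 3.26% of all genes were. Dpp4 was at 2.58, 3.06 and 4.67 per 1000 pan-fibroblast counts in Ctrl and at 4.6, 3.93 and 11 in DTR. Sema3c was at 5.17, 6.07 and 5.66 in Ctrl and at 8.04, 7.42 and 17.0 in DTR. Cd248 was at 8.29, 9.51 and 8.5 in Ctrl and at 10.4, 10.6 and 18.5 in DTR. In Sema3c and Cd248 every DTR library was above every Ctrl library on this scale, as in 1.31% of all genes, and in the other 8 genes the groups overlapped. Gsn was almost level, at 40.6 ± 11.3 in Ctrl and 42.5 ± 19.6 in DTR (SD, n = 3 each). With these counts as the library size in the fit, the median log2 fold change of the members was 0.60 beside -0.36 for all genes, 0 members had an unadjusted p under 0.05 with 0.489% of all genes higher in DTR at that p, and the adjusted p of Sema3c was 0.952 (edgeR's quasi-likelihood test).

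A wider list of adventitial fibroblast genes, without the members, was read in the same way. Of its 27 genes, 26 passed the filter, and all 26 had a log2 fold change above 0 with a median of 1.34, from 0.38 for Procr, a protein C receptor, to 1.97 for Wnt2, a secreted WNT ligand. After adjustment 0 passed (edgeR quasi-likelihood), 10 were higher in DTR at an unadjusted p under 0.05 (3.81% of all genes), and in 2 of 26, Wnt2 and Aldh1a3, the groups did not overlap (6.32% of all genes). Wnt2 was at 6.94, 2.55 and 1.55 CPM in Ctrl and at 12.6, 8.28 and 22.3 CPM in DTR, and its log2 fold change without DTR replicate 3 was 1.51. For the list as a whole, all 26 genes were highest in DTR replicate 3, the summed level was 2300, 1265 and 1114 CPM in Ctrl and 2753, 1392 and 6469 CPM in DTR, and the median without DTR replicate 3 was 0.43. With pan-fibroblast counts as the library size the median was 0.82, Procr was at -0.02 and 24 of the 26 genes were highest in DTR replicate 3.

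Genes of other fibroblast states had medians nearer to 0. The 14 genes listed for Col15a1-type fibroblasts, which lay down basement membrane, had a median log2 fold change of 0.23, with 7 genes above and 7 below 0, from -0.63 for Ndufa4l2 to 1.31 for the transcription factor Ebf1. Of 19 myofibroblast genes, 17 passed the filter with a median of -0.10, from -1.31 for Acta2, smooth muscle actin, to 0.94 for the collagen receptor Itga11. Acta2 was at 16.7, 4.27 and 10.6 CPM in Ctrl and at 4.04, 7.15 and 1.46 CPM in DTR, so that the library with the highest members was lowest for Acta2. That did not hold for the whole list, which summed to 1305, 551 and 590 CPM in Ctrl and 744, 776 and 741 CPM in DTR. Of its 17 tested genes, 3 were highest in DTR replicate 3, among them Itga11. Over the 12 pan-fibroblast genes the median was 0.14, from -0.22 for the collagen chaperone Serpinh1 to 1.15 for the gelatinase Mmp2. After adjustment 0 genes of these 3 lists passed (edgeR quasi-likelihood). Without DTR replicate 3 the medians of these lists were -0.07, -0.05 and -0.03. Ndufa4l2, Acta2 and Serpinh1, the lowest with all libraries, were then at -0.61, -0.91 and -0.17. Ebf1, Itga11 and Mmp2, the highest, were at 0.87, 0.05 and 0.34.

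**Figure D4:**
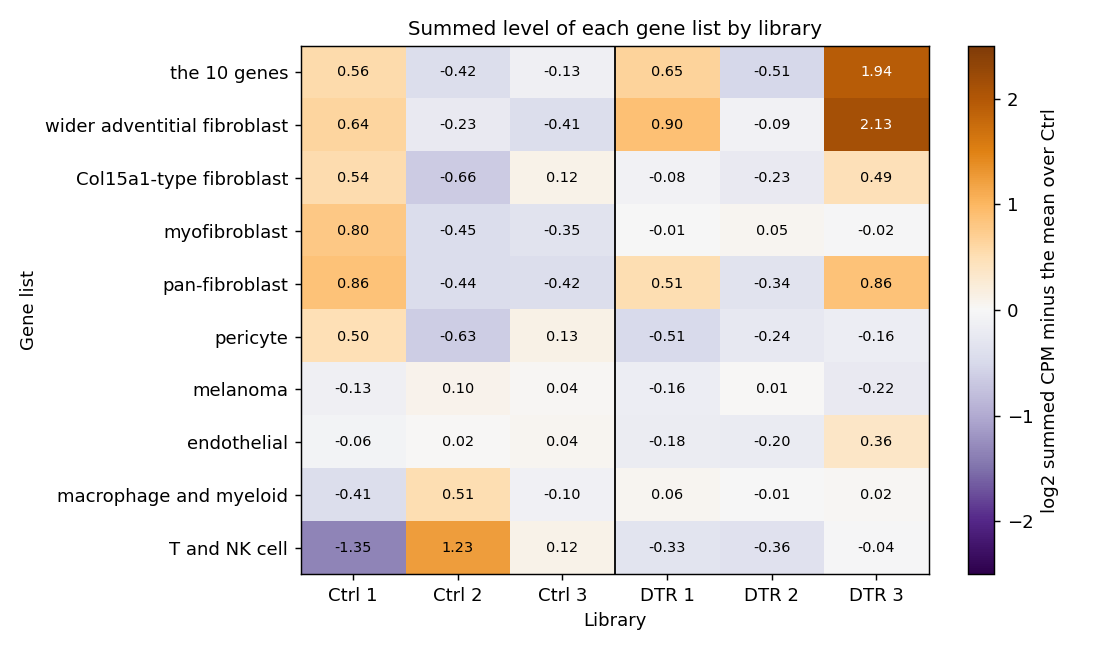
Summed TMM CPM of each gene list in each library as log2 minus the mean of log2 over the 3 Ctrl libraries (colour and printed value). The 10 genes and the wider adventitial list reach 1.94 and 2.13 in DTR 3, whereas the pan-fibroblast list is at 0.86 there and in Ctrl 1, and the melanoma list is between -0.22 and 0.10 throughout.

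Markers of cells other than fibroblasts were given the same description. All 12 melanoma genes passed the filter, none of them at 0, with a median log2 fold change of -0.08, from -0.28 for Sox10 to 0.05 for Mlana, and their summed level was lowest in DTR replicate 3, DTR replicate 1 and Ctrl replicate 1. Of 12 endothelial genes, 8 passed, with a median of 0.05, from -1.65 for the VEGF receptor Flt1 to 1.84 for the angiopoietin receptor Tek. Their sums ran from 175 to 188 CPM in Ctrl and from 159 to 235 CPM in DTR, with DTR replicate 3 highest, while Cldn5 and Emcn were at 0 in at least 5 of the 6 libraries. Eng, picked afterwards as the most abundant, made up most of each sum, at 155 ± 11.4 CPM in Ctrl (SD, n = 3). In DTR replicate 3 it was at 149 CPM. Tek was at 11.2, 4.36 and 7.70 CPM in Ctrl and at 14.7, 5.99 and 62.9 CPM in DTR, the same order of libraries as Pi16. The endothelial median was -0.16 and Tek was at 0.42 without DTR replicate 3. Pericyte genes (7 of 10 tested) had a median of -0.54, from -1.02 for Cspg4 to -0.12 for Des, and their sums ran from 70.3 to 153 CPM in Ctrl and from 76.3 to 97.1 CPM in DTR.

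Macrophage and myeloid genes (11 of 12 tested) had a median of -0.10, from -0.37 for C1qc to 0.31 for Adgre1, with sums of 107 to 202 CPM in Ctrl and 140.3 to 147 CPM in DTR. Genes of T and NK cells (14 of 15 tested) had a median of -0.58, from -1.33 for Ncr1 to 0.02 for Trac, with sums of 10.3 to 61.3 CPM in Ctrl and 20.4 to 25.4 CPM in DTR. Low levels were found for keratinocyte genes (4 of 10 tested, Col17a1 at -0.48 to Krt10 at 0.46, sums of 3.83 to 6.26 CPM), skeletal muscle genes (5 of 10 tested, Mylpf at -0.87 to Mb at 1.14, 6.86 to 13.3 CPM) and adipocyte genes (3 of 10 tested, Fabp4 at -1.14 to Lpl at 0.36, 23.2 to 55.9 CPM). Immediate early genes, which respond to tissue dissociation, had a median of 0.23, from -0.54 for Hspa1a to 0.59 for Egr1, and 9 of 12 were highest in DTR replicate 3. Without that library their median was -0.14 and Egr1 was at -0.21, and with pan-fibroblast counts as the library size the median was again -0.14, with 2 of 12 highest in DTR replicate 3. The part of tumor, endothelial, immune or handling-related RNA in the level of the 10 genes was not tested.

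Relatives and partners of the members were listed as well. Of 27 genes related to a member by protein family, 25 passed the filter with a median log2 fold change of 0.13, from -1.13 for Sema3a to 1.99 for Crispld1, a CAP family gene like Pi16. Crispld1 was low, at 1.23, 0.377 and 0.668 CPM in Ctrl and at 2.5, 1.32 and 5.25 CPM in DTR, and without DTR replicate 3 its log2 fold change was 1.33. Among the other semaphorins of the class, Sema3d and Sema3e had log2 fold changes of 1.18 and 1.09, Sema3f was at 0.52, Sema3g at 0.12 and Sema3b at -0.13. Without DTR replicate 3 these values were 0.48, 0.45, 0.02, 0.13 and -0.13, in the same order. These 5 semaphorins were picked after their values were seen. Fap, the peptidase closest to Dpp4, was at 0.89 (0.20 without DTR replicate 3), and the cytosolic peptidases Dpp8 and Dpp9 were at -0.13 and -0.37, likewise picked afterwards.

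All 8 listed receptors of Sema3c passed the filter, with a median log2 fold change of 0.01. The lowest was Plxnb1, a plexin, at 92.1, 102 and 86.9 CPM in Ctrl and 74.9, 70.9 and 70.7 CPM in DTR, a log2 fold change of -0.38 (SE 0.0919; adjusted p = 0.602, edgeR quasi-likelihood). In Plxnb1 and in Plxna1 and Plxnd1, at -0.31 and -0.24, every DTR library was below every Ctrl library, as in 8.18% of all genes. The highest was Plxna4 at 0.61, with overlapping groups.

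The genes outside the list whose log2 CPM followed the mean of the members most closely over the 6 libraries were Irak3, an inhibitor of Toll-like receptor signalling (r = 0.998), Antxr1, a collagen-binding receptor (r = 0.997), the non-coding RNA Snhg11 (r = 0.997), the basement membrane gene Nid1 (r = 0.996) and the glycosyltransferase gene B3galnt1 (r = 0.995). Irak3 was at 22.7, 10.5 and 11.7 CPM in Ctrl and at 26.8, 10.1 and 69.2 CPM in DTR. An r above 0.9 was found for 500 genes, 3.31% of those tested, and for 22 of the 26 tested genes of the wider adventitial list. All genes of a library share its depth and any difference in cell composition, which was not measured. With 6 libraries, these values are descriptions only.

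Since the members varied together, the sequence before their start sites was examined. RefSeq promoters of GRCm38.p6, 250 bases before to 50 after each start, were at hand for 7 of the 10 members, in 10 promoters because Gsn has 3 and Ly6c1 has 2. The members differed in CpG content. The Sema3c promoter held 42 CG dinucleotides in 300 bases and the 3 Gsn promoters 20, 2 and 16, whereas those of Cd34, Dpp4, Dpt and Pi16 held 7, 4, 4 and 3 and those of Ly6c1 held 1 and 0, beside a median of 7 over all 32851 promoters. The following are shown to let the stretches before Dpp4, Dpt and Cd34 be compared with the CpG-richest of the 3 Gsn promoters. Each runs 5′ to 3′ on the strand of the gene, with CG in capitals, and holds those of the 250 bases before the RefSeq start that lie before every annotated exon of the gene.
Dpp4 (chr2:62412232-62412481, minus strand): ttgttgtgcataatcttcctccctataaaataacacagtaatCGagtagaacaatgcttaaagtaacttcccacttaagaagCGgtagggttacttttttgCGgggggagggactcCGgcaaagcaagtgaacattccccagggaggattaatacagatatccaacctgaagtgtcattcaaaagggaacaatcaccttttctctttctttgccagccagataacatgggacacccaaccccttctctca
Dpt (chr1:164796413-164796643, plus strand): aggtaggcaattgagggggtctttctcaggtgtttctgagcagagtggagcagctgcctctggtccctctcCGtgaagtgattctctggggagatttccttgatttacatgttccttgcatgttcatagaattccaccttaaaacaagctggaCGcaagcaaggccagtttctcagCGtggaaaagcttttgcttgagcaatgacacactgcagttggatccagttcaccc
Cd34 (chr1:194938571-194938818, plus strand): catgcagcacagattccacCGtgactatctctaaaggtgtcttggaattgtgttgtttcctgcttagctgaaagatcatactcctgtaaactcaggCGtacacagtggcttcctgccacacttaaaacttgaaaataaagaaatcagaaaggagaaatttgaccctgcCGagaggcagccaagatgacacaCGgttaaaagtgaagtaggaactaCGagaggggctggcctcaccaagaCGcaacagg
Gsn (chr2:35256109-35256358, plus strand): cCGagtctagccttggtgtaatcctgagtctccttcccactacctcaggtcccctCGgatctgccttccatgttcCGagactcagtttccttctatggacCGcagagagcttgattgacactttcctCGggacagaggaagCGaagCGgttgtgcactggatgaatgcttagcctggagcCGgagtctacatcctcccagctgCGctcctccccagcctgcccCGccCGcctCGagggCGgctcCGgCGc

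In these stretches the counts of CG were 4 for Dpp4, 3 for Dpt, 6 for Cd34 and 15 for Gsn. Of 3 motifs searched on both strands of the 300 bases, TATAAA was found in 3 of the 10 member promoters (of Dpp4, Dpt and Ly6c1) and in 13.6% of all promoters, GGGCGG in 4 (of Sema3c and Gsn) and in 35.7%, and CCAAT in 4 (of Gsn, Ly6c1 and Pi16) and in 37.4%. No motif was present in all 7 members. The matches describe letters in the window and say nothing of binding.

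DESeq2's Wald test, the test used by the study, was also run on the counts. It called 31 of 20519 genes with an adjusted p, 0.151% of them, and 0 of the 10 members, whose lowest adjusted p was 0.821. None of the 10 had an unadjusted p under 0.05 in DESeq2.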

How the data were processed

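RNA was measured in 3 Ctrl and 3 DTR libraries, made per the labels with a stranded total RNA kit. The authors trimmed reads with cutadapt 3.4, aligned them to GRCm38 with STAR 2.7.3a and obtained gene counts from featureCounts 2.0.1, and deposited raw counts without normalization, which were used here. The deposited table also holds the authors' DESeq2 comparison (size-factor-scaled counts, fold changes and p-values), which was not used. Coordinates and exons came from GENCODE M21 of GRCm38, and promoter sequences from RefSeq.

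Genes were kept with edgeR's filterByExpr (minimum count 10, minimum total 15), scaled by TMM and tested without covariates by edgeR's quasi-likelihood test, two-sided, with Benjamini-Hochberg adjustment over all 15133 genes. The threshold was an adjusted p under 0.05. SE was computed as the log2 fold change divided by the root of the F statistic. Correlations used log2(CPM + 0.5). The steps were tested on simulated data. R 4.3.3, edgeR 4.0.16, DESeq2 1.42.0, Python 3.11.15, pandas 2.3.3, scipy 1.17.1 and matplotlib 3.10.9 were used.

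The members and gene lists were chosen with earlier results of these data known. Named genes were the 10 members, Adam12, Pdgfra and Pdpn, the lowest and highest tested gene of each list, the tested Ly6 neighbours and the 5 genes most like the members. Others are given where a count of 5 or fewer singles them out, or are said to be picked afterwards. Alternatives were other scalings (DESeq2-type size factors, library size, pan-fibroblast counts), other filters, robust moderation, DESeq2, the replicate number as a block, an offset for genomic span (the distance between a gene's annotated ends), and each library left out.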

Additional observations from a re-analysis of the deposited data

How the results depend on the processing

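No member reached the threshold after adjustment in the reported edgeR fit or under any of 15 alternatives, where member adjusted p ran from 0.480 to 0.996. Of 150 member values under the alternatives, 149 kept a log2 fold change above 0. The exception was Gsn without DTR replicate 3, at -0.16 (adjusted p = 0.973, edgeR), and its values with single libraries left out ran from -0.16 to 1.06. The median log2 fold change of the members ran from 0.60 (pan-fibroblast scaling) to 1.14 (library size alone) when no library was left out, and from 0.32 to 1.53 when 1 was.

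The number of members at an unadjusted p under 0.05 was 2 in the reported fit, 9 when all genes with at least 1 count entered (4.19% of all genes were higher in DTR at that p), 1 with the offset for genomic span (2.16%), 0 with pan-fibroblast scaling (0.489%), robust moderation (3.59%) or DESeq2 (2.93%), and 0 to 10 with a library left out (2.88% to 5.16%). The members whose groups did not overlap numbered 0, but 2 with pan-fibroblast scaling (1.31% of all genes with DTR higher) and 0 to 8 with a library left out (8 without DTR replicate 2, 3 without Ctrl replicate 1, with 11.5% and 12.6% of all genes). Over all genes, the reported fit called 0, with 577 higher and 622 lower at an unadjusted p under 0.05. There were 3 calls with pan-fibroblast scaling, 31 with DESeq2, and 0 to 2 with a library left out (2 without Ctrl replicate 1). The cause of these differences was not tested.

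Whether the replicate numbers pair the libraries is not settled by the labels or the data. Deviations from the group means correlated at 0.146, 0.162 and -0.0650 between libraries of the same number, not over 0.1 in every pair, so the numbers were not treated as pairs, and 2 of 3 Ctrl libraries correlated best with their own number. With the replicate block the median of the members was 0.83 and that of the wider adventitial list was 0.99. In that fit 2 members, both higher in DTR, were at an unadjusted p under 0.05 (edgeR quasi-likelihood). Of all genes, 4.26% were higher in DTR at that p, and 0 genes were called.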
